A study of Mus musculus with 8 samples.

Results

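TRP and Piezo channels are the membrane proteins by which many cells sense temperature, stretch, osmotic change and chemical ligands, and their genes were examined here in dental pulp (DP) of mice at postnatal day 7. The genes were chosen by symbol: *Trpm3*, *Trpm4*, *Trpm7*, *Trpc1* and *Trpv4* of the TRP family, *Piezo1* and *Piezo2*, and the polycystin genes *Pkd1* and *Pkd2*. Of these 9 genes, 8 had a row among the 12148 genes of the deposited table, and *Trpc1* was not analysed here. The table holds only genes that passed the authors' filter for reliable quantification, so the 8 are the members that could be measured and not the whole family.

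The 8 libraries came from DP of first molars of C57BL/6J mice. There were 4 libraries from Osterix-Cre controls, which carry Cre recombinase driven by the Osterix promoter, and 4 from *Tgfbr2cko* mice (Osterix-Cre:Tgfbr2f/f), which carry the same recombinase and loxP-flanked *Tgfbr2*, the type 2 receptor of transforming growth factor β (TGFβ). Both groups therefore carry the Cre transgene, and the deletion is aimed at cells of the Osterix lineage, the odontoblasts and DP mesenchyme, while other cells in the same pulp, axons among them, are not targeted. Left and right molars were combined before RNA extraction, and the sources do not say how many animals a library holds, so the p-values measure the spread between these libraries. The numbers that end the sample titles serve as library names here, with 49 to 52 belonging to Osterix-Cre and 53 to 56 to *Tgfbr2cko*.

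Members of the TRP melastatin (TRPM), canonical (TRPC) and vanilloid (TRPV) families are cation channels, most of which let calcium into the cell. TRPM7 is unusual in joining a channel for magnesium and calcium to a protein kinase in one polypeptide, and PIEZO1 and PIEZO2 form large trimeric channels opened by membrane tension. Polycystin-1 and polycystin-2, the products of *Pkd1* and *Pkd2*, assemble into a complex on the primary cilium. In teeth, such channels have been studied in sensory axons, where PIEZO2 serves touch and TRPM3 responds to heat, and in odontoblasts, which line the pulp and lay down dentin.

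Every value below is a log2 value, meaning the log2 of CPM (reads per 1e+06 reads on the genes of the table, with 0.5 added to each count), unless a sentence says otherwise. Between 8682872 and 13539670 reads per library fell on the 12148 genes. The deleted gene, *Tgfbr2*, had values of 7.16, 7.62, 7.64 and 7.52 in libraries 49 to 52 and of 7.02, 7.00, 7.16 and 7.61 in libraries 53 to 56, so that the libraries labelled Tgfbr2cko 55 and 56 did not lie below all controls. The values cover all exons of the gene and all cells of the pulp, including those without Cre, and the log2 fold change was -0.29 (standard error 0.17, limma-trend p of 0.119). The library labelled Tgfbr2cko 56 also stood apart in transcripts of the dental epithelium: the 12 marker genes of that tissue, all measured, summed to 196070 CPM there, to at most 30391 CPM in the other mutants and to between 4202 and 23662 CPM in the controls. Most of that sum came from the enamel matrix genes *Ambn* and *Amelx*, with 1273772 and 1224358 reads in library 56. By genotype the 12 did not move together, with 7 higher and 5 lower means, and the enamel protease gene *Klk4* was lower in the mutants (log2 fold change -2.71, limma-trend adjusted p of 0.000136). Odontoblast markers were abundant in all libraries, with 8 of 8 measured and a sum of 29468 CPM or more. Of 16 axon markers only 6 were measured. The neurofilament genes *Nefl*, *Nefm* and *Nefh*, the sodium channel genes *Scn9a* and *Scn10a*, and *Calca* were not analysed here, and the 6 that were summed to between 208 and 341 CPM in the controls and between 255 and 297 CPM in the mutants.

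In the comparison of genotypes, none of the 8 channel genes was altered, a call that asks for both a limma-trend p under 0.05 before adjustment and a size of 1.5-fold or more. Of all genes 5.77% were altered, 3.65% with lower and 2.12% with higher values in the mutants. *Piezo1* was the 1 member with a p under 0.05 regardless of size, and it was lower in *Tgfbr2cko* pulp. That is 1 of 8 members, where 8.38% of all genes passed, 5.08% with a lower and 3.3% with a higher value in the mutants. No member had an adjusted p under 0.05, against 0.947% of all genes, and in none did the values of the genotypes fail to overlap, against 5.27% of all genes. The median log2 fold change of the 8 was 0.00, beside -0.01 over all genes, with 4 members higher and 4 lower. The count of altered members was not stable when single libraries were left out, as described with each gene.

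The promoters of the 3 members whose group means lay farthest apart are shown because the deletion removes a receptor that signals through SMAD proteins, which bind the sequence CAGAC. Each is the 250 bases before a RefSeq transcription start (GRCm38.p6), 5′ to 3′ on the strand of the gene, with CAGAC or its reverse complement GTCTG in capitals. The *Piezo1* window is chr8:122551330-122551579 on the minus strand, the *Trpm7* window chr2:126876262-126876511 on the minus strand, and the first of the 2 *Trpm3* windows chr19:22138796-22139045 on the plus strand.

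Piezo1: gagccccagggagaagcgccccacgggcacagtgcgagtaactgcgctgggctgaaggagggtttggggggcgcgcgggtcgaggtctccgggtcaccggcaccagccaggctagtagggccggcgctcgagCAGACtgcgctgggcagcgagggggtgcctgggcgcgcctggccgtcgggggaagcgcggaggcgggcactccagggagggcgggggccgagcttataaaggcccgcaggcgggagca
Trpm7: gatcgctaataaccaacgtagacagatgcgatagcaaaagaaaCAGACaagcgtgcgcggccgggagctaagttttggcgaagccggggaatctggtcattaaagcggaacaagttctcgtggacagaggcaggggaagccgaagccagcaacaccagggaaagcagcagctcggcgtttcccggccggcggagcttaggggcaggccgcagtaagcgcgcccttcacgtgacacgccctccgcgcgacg
Trpm3: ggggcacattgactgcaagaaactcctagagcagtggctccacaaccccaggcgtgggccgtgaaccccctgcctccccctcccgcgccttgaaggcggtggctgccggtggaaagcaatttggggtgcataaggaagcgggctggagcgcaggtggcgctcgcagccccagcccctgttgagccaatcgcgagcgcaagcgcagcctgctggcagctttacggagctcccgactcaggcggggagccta

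The *Piezo1* and *Trpm7* windows each held 1 match and the *Trpm3* window none. CAGAC in either orientation occurred in 42.2% of the 32851 windows of the same length in the mouse promoter set, so its presence is common. The palindrome GTCTAGAC, searched in the same way, was in none of the 7 windows that 6 members had and in 0.167% of all windows. A GC-rich motif that SMAD proteins also bind, GGCGC in either orientation, was in 5 of the 7 windows and in 32% of all windows, with 5 matches in *Piezo1*, 3 in *Trpv4*, 2 each in *Pkd1* and the first *Trpm3* window and 1 in *Trpm7*. *Pkd1* held 2 matches to CAGAC, and *Pkd2*, *Trpv4* and the second *Trpm3* start held none. These matches are descriptions of the letters, and no binding was measured. G and C made up between 52.8% of a window, in *Pkd2*, and 74%, in *Piezo1*, beside a median of 52.4% over all windows.

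Levels were first compared between the members in the controls, as CPM per kilobase of exon, because longer transcripts collect more reads. *Trpm7* had the highest median, 46.6 CPM per kilobase (lowest 31.6, highest 63.8), followed by *Trpv4* with 36.1 (27.5 to 41.5). These ranges overlapped, so their order was not resolved. *Pkd1* followed at 9.97 (8.19 to 10.6), *Piezo1* at 7.64 (5.31 to 7.92) and *Pkd2* at 6.67 (5.89 to 8.49). *Pkd1* lay above *Piezo1* in all controls on this scale, while *Piezo1* and *Pkd2* overlapped. *Piezo1* shares 24.6% of its exon length with a gene on the other strand, and reads there cannot be assigned. The place of *Piezo1* in the order is thus uncertain. *Trpm4*, which encodes a calcium-activated channel that passes sodium and not calcium, had 2.31 (2.1 to 2.68). *Trpm3* at 0.681 (0.54 to 0.956) and *Piezo2* at 0.581 (0.444 to 0.803) were lowest and overlapped. The median of *Trpm7* was thus 80.2 times that of *Piezo2*, and that of *Piezo1* was 13.2 times that of *Piezo2*. On this scale *Trpm7* stood at percentile 90.6 and *Trpv4* at percentile 87.4 of all genes in the table, and *Trpm3* and *Piezo2* at percentiles 3.21 and 2.22.

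**Figure D1:**
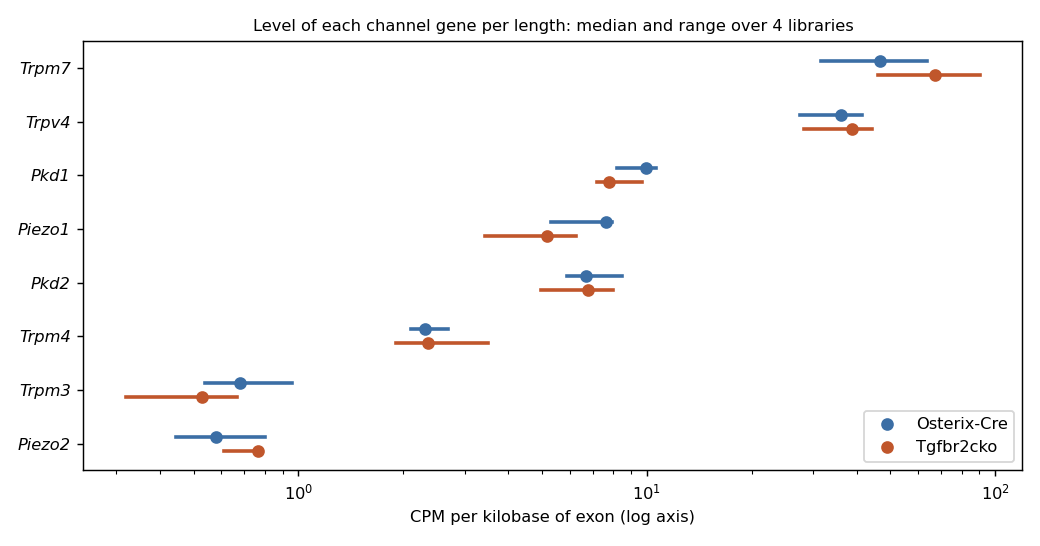
Level of each channel gene in CPM per kilobase of exon on a log axis, with the dot at the median and the line from the lowest to the highest of 4 libraries, blue for Osterix-Cre and orange for Tgfbr2cko. Trpm7 and Trpv4 lie above all other members in both genotypes, and Trpm3 and Piezo2 lie lowest.

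In *Tgfbr2cko* pulp *Trpm7* again came first with a median of 67.1 CPM per kilobase (46.1 to 90.2) and *Trpv4* second with 38.7 (28.3 to 44.3), and here their ranges did not overlap. *Pkd2* and *Piezo1* changed places, as did *Piezo2* and *Trpm3*, both between neighbours whose ranges overlapped. The lengths matter for this order. With the longest transcript in place of all exons, *Pkd2* moved above *Pkd1* in the controls, to 13 against 12.3 CPM per kilobase, with overlapping ranges. *Pkd2* then no longer overlapped *Piezo1*, and *Trpm4* (5.28 to 6.72) overlapped *Piezo1* (6.42 to 9.58). The percentiles moved too, to 37.7 for *Trpm4*, 7.16 for *Trpm3* and 3.23 for *Piezo2*.

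*Piezo1* (ENSMUSG00000014444.17, chromosome 8 from 122481698 to 122551329 on GRCm38) encodes the mechanically gated channel best known from endothelium and red blood cells. Its values were 5.72, 6.27, 6.23 and 6.30 in libraries 49 to 52 and 5.67, 5.70, 5.96 and 5.10 in libraries 53 to 56. Of the 4 mutant libraries, 3 lay below all controls, and library 55 lay between library 49 and the other controls. The *Tgfbr2cko* mean of 5.61 ± 0.36 (SD, n = 4) lay below the Osterix-Cre mean of 6.13 ± 0.27 (SD, n = 4), a log2 fold change of -0.52 with a standard error of 0.20 and a 95% interval from -0.95 to -0.09. As a ratio, the mutants were at 0.697 of the control level. The limma-trend p was 0.021 and the adjusted p 0.393, and the exact permutation test over 70 arrangements gave a p of 0.0571.

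The p of *Piezo1* rested on several libraries and on the fit used. Of 17 alternative fits, 11 kept its p under 0.05. With the enamel genes as a covariate the change was -0.37 with a limma-trend p of 0.0595. Without the library labelled Tgfbr2cko 56 its log2 fold change was -0.35, with a limma-trend p of 0.0583, and without library 50, 51 or 52 in turn the changes of -0.48, -0.49 and -0.46 had p of 0.0551, 0.0518 and 0.0568. Without the low control 49 the change was -0.66 with a p of 0.00621, and without library 55 it was -0.64 with a p of 0.01, and in both of these fits *Piezo1* passed the 1.5-fold criterion. The exons of *Piezo1* overlap those of *Ctu2*, a gene for a tRNA-modifying enzyme, which lies on the other strand, over 24.6% of the *Piezo1* exon length. The library kits do not mark strand, so reads there cannot be assigned to one gene. *Ctu2* itself had a log2 fold change of 0.01 (standard error 0.18).

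Some markers of 4 cell types were lower alongside *Piezo1*, and the counts below are of genes lower at a p under 0.05, as 5.08% of all genes were. Of 8 endothelial markers, all measured, 8 had lower means in the mutants and 3 of them passed that p, *Cldn5*, *Tek* and *Emcn*. Their sum was between 357 and 463 CPM in the controls and between 288 and 370 CPM in the mutants. The study's staining of vessels in first molars at this age showed no significant difference between genotypes. The mural cell markers, 7 of 8 measured with *Myh11* not analysed here, summed to between 652 and 939 CPM in the controls and to between 438 and 852 CPM in the mutants, with 3 of 7 lower. The macrophage markers, 8 of 8 measured, ranged from 1117 to 1477 CPM in the controls and from 531 to 1163 CPM in the mutants, with 4 of 8 lower, or 2 without the library labelled Tgfbr2cko 56. Odontoblast markers summed to 48020 to 102198 CPM in Osterix-Cre and 29468 to 63229 CPM in *Tgfbr2cko*, with 3 of 8 lower, or 2 without that library. The means of 2 of the 8, *Phex* and *Sp7*, were higher in the mutants. The 2 with the highest levels, *Col1a1* and *Dspp*, make up most of the sum and did not pass that p. In such bulk libraries fewer cells of a type and less RNA per cell cannot be told apart, and the part of these cells in the *Piezo1* difference was not tested.

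*Piezo2* (ENSMUSG00000041482.16, chromosome 18 from 63010213 to 63387183) encodes the touch channel of sensory neurons and Merkel cells. It had only 77 to 181 reads per library, and counting error alone is 11.4% at the lowest of these. Libraries 49 to 52 stood at 3.57, 3.79, 3.03 and 2.94 and libraries 53 to 56 at 3.71, 3.40, 3.72 and 3.74, so all mutants lay within the control range. The controls fell into a higher pair, which share the number 4 in their titles, and a lower pair with the title numbers 2 and 5. The group means were 3.33 ± 0.41 and 3.64 ± 0.16 (SD, n = 4 each), with a log2 fold change of 0.31 (95% interval -0.19 to 0.82, limma-trend p of 0.204, adjusted p of 0.885). Leaving out 1 library moved it between 0.18 without library 52 (limma-trend p of 0.462) and 0.47 without library 50 (limma-trend p of 0.0775).

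The balance of the 2 Piezo genes within a library was compared as the log2 value of *Piezo1* minus that of *Piezo2*. From library 49 to 52 it was 2.15, 2.48, 3.20 and 3.36, and from library 53 to 56 it was 1.95, 2.30, 2.24 and 1.35. Library 49 lay below mutants 54 and 55, and library 50 lay above all mutants. The mean was 1.96 ± 0.43 in *Tgfbr2cko* against 2.80 ± 0.58 in Osterix-Cre (SD, n = 4 each), a shift of -0.83 by genotype. The exact permutation p was 0.0857, and 0.171 after adjustment over the 2 ratios tested. Without library 49 the shift was -1.05 with an exact permutation p of 0.0286, the smallest that 3 against 4 libraries allow. Without any other single library the p lay above 0.05, up to 0.2 at a shift of -0.63 without the library labelled Tgfbr2cko 56.

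*Trpm7* (ENSMUSG00000027365.14, chromosome 2 from 126791565 to 126876230) encodes the channel-kinase that many cell types need for magnesium balance. With 3457 to 12532 reads per library it took between 39.3% and 69.3% of the reads of the 8 members. Its values were 8.72, 8.48, 9.31 and 9.50 in the controls against 9.19, 10.00, 9.87 and 9.03 in the mutants. Libraries 54 and 55 lay above all controls, and libraries 53 and 56 lay between the lower and the higher pair of controls. The highest library had 2.85 times the CPM of the lowest, and counting error was 1.7% at the lowest count.

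The *Tgfbr2cko* mean of *Trpm7* was 9.52 ± 0.48 (SD, n = 4), and the SD of the controls was also 0.48 (n = 4). The mutants lay higher by a log2 fold change of 0.52, with a standard error of 0.27 and a 95% interval from -0.06 to 1.10, so the data allow anything from a small fall to a rise of 2.14-fold. The limma-trend p was 0.0764, the adjusted p 0.681 and the exact permutation p 0.2. Without the library labelled Tgfbr2cko 56 the change was 0.68 with a limma-trend p of 0.0203, and without library 52 or 53 it was 0.68 and 0.63 with p of 0.0299 and 0.0437. In all 3 of these fits *Trpm7* passed the 1.5-fold criterion. When library 50 was left out instead, the change was 0.35 with a p of 0.236.

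The mutant values of *Trpm7* followed the numbers in the titles. Libraries 54 and 55 share title number 2 and libraries 53 and 56 share title number 3, and within these pairs the values differed by at most 0.16, while mutants of different title numbers differed by at least 0.68. In the controls the same was not seen, since libraries 49 and 50 differed by 0.24 and libraries 51 and 52, with unlike title numbers, by 0.19. Over all genes, 194 of 12148 (1.6%) had same-number libraries closest in both genotypes, and no member did. No other member showed the pattern in the mutants, and the share of all genes that did was not counted. The pattern was picked out after the values were seen. The labels do not say what the title number stands for. Only number 2 occurs in both genotypes, and within it the 2 mutants lay 0.63 above the 1 control, library 51. Averaging libraries of one genotype and title number, which leaves 3 controls and 2 mutants, gave a log2 fold change of 0.39 with a limma-trend p of 0.212.

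**Figure D2:**
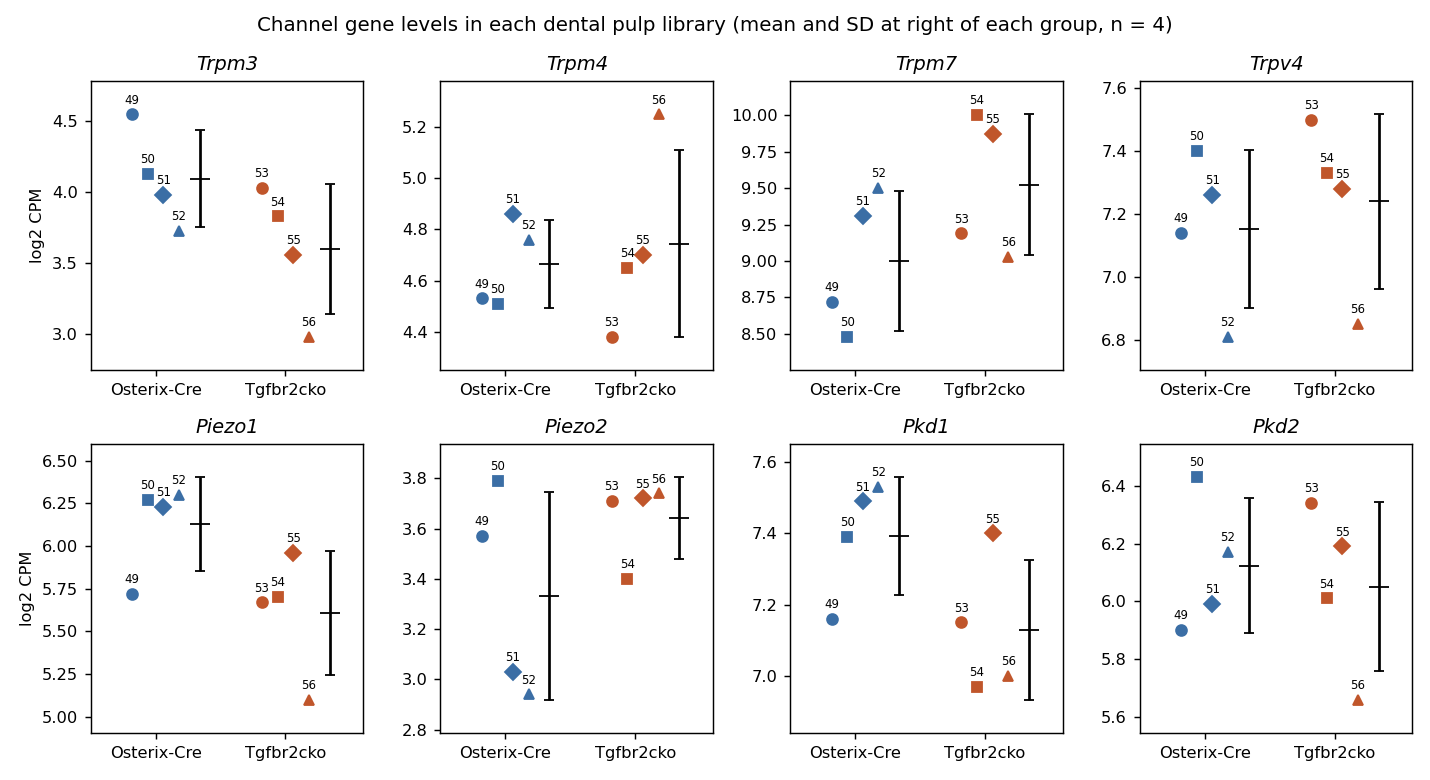
Log2 CPM of each channel gene by library, blue for Osterix-Cre and orange for Tgfbr2cko, with the library number above each point and the mean and SD (n = 4) beside each group; each panel has its own axis, which does not start at 0. The genotypes overlap in every panel, with 3 of 4 mutants below all controls for Piezo1 and Pkd1 and 2 of 4 above all controls for Trpm7.

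*Trpm3* (ENSMUSG00000052387.15, chromosome 19 from 22139046 to 22995410) encodes a channel opened by heat and by neurosteroids in sensory neurons, and its long transcripts start at more than one promoter. It had 102 to 229 reads per library, with a counting error of 9.9% at the lowest. In order of library it stood at 4.55, 4.13, 3.98 and 3.73 in Osterix-Cre and at 4.03, 3.83, 3.56 and 2.98 in *Tgfbr2cko*. Libraries 55 and 56 lay below all controls, and libraries 53 and 54 lay among them. The log2 fold change was -0.50 (standard error 0.26, 95% interval -1.05 to 0.06), with a limma-trend p of 0.0741, an adjusted p of 0.674 and an exact permutation p of 0.171. The study names *Trpm3* among genes with lower RNA in the mutants. At the study's thresholds, 1.5-fold and a p under 0.05, the fit here did not call it. With voom weights the change was -0.53 with a limma p of 0.064.

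Leaving out single libraries moved *Trpm3* to either side of the threshold. Without library 53 its change was -0.64 with a limma-trend p of 0.0287, and without library 52 it was -0.62 with a p of 0.0414, past 1.5-fold in both. Without the library labelled Tgfbr2cko 56, the lowest of the 8, the change was -0.29 with a p of 0.221, and without library 49, the highest, it was -0.35 with a p of 0.219. Quantile normalization gave a change of -0.48 with a p of 0.0458, and centring each library on its median -0.50 with a p of 0.0474. The 6 axon markers measured did not share a direction: 4 had higher and 2 lower means in the mutants, and the 1 with a p under 0.05, the gene of the neuropeptide substance P, *Tac1*, was higher, at a change of 1.28 on the log2 scale, where 3.3% of all genes were higher and 5.08% lower at that p. When the library labelled Tgfbr2cko 56 was left out, 2 axon markers had higher and 4 lower means, the median changed from 0.17 to -0.06, and 2 were higher at a p under 0.05, with 9.58% of all genes past it in either direction. Of the Schwann cell markers 6 of 12 were measured, 2 of them lower (1 without that library) and 1 higher at a p under 0.05, and these 6 summed to 207 to 273 CPM in Osterix-Cre and 163 to 211 CPM in *Tgfbr2cko*. Their changes differed in direction, from -2.01 for the myelin gene *Ncmap* (limma-trend adjusted p of 0.00162) and -0.64 for *Prx* to 0.57 for *Mbp*, and *Pmp22*, with the most reads, was at -0.04. The defining marker *Sox10* was not analysed here, and the part of axons and Schwann cells in the *Trpm3* values was not tested.

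*Trpm4* (ENSMUSG00000038260.10, chromosome 7 from 45302632 to 45333780) stood at 4.53, 4.51, 4.86 and 4.76 in Osterix-Cre and at 4.38, 4.65, 4.70 and 5.25 in *Tgfbr2cko*. The mutants spread to both sides of the controls, with library 53 the lowest and library 56 the highest of the 8. Its log2 fold change was 0.08 (95% interval -0.35 to 0.51, limma-trend p of 0.707, adjusted p of 0.998). Without the library labelled Tgfbr2cko 56 the direction turned, to -0.09.

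*Trpv4* (ENSMUSG00000014158.12, chromosome 5 from 114622152 to 114658421), which encodes a channel sensitive to osmotic swelling and warmth and studied in skeletal cells, was measured at 7.14, 7.40, 7.26 and 6.81 in Osterix-Cre and at 7.50, 7.33, 7.28 and 6.85 in *Tgfbr2cko*. Both genotypes covered nearly the same range, and only library 53 lay above all controls. The log2 fold change was 0.08 with a 95% interval from -0.29 to 0.46, which limits a change to between 0.817 and 1.38 times the control level. The limma-trend p was 0.636 and the adjusted p 0.998. Without library 52 the change was -0.03 and without library 53 -0.00, so its direction was not fixed.

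*Pkd1* (ENSMUSG00000032855.5, chromosome 17 from 24549834 to 24596508) stood at 7.16, 7.39, 7.49 and 7.53 in libraries 49 to 52 and at 7.15, 6.97, 7.40 and 7.00 in libraries 53 to 56. Libraries 53, 54 and 56 lay below all controls, library 53 by a narrow margin, and library 55 lay among them. The mean was 7.39 ± 0.17 against 7.13 ± 0.19 (SD, n = 4 each), with a log2 fold change of -0.26 (standard error 0.15, 95% interval -0.58 to 0.06). The limma-trend p was 0.101, the adjusted p 0.751 and the exact permutation p 0.114. Without library 49 the p was 0.0467 at a change of -0.34, and without library 55 it was 0.0496 at -0.35. In the other 6 such fits the p lay between 0.134 and 0.227 and the change between -0.27 and -0.21. The exons of *Pkd1* overlap those of *Tsc2* on the other strand over 3.98% of the exon length, and *Tsc2* changed by -0.12 (standard error 0.14).

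*Pkd2* (ENSMUSG00000034462.9, chromosome 5 from 104459450 to 104505819) stood at 5.90, 6.43, 5.99 and 6.17 in libraries 49 to 52 and at 6.34, 6.01, 6.19 and 5.66 in libraries 53 to 56. Library 56 lay below all controls and the other mutants lay among them. Its log2 fold change was -0.07 (95% interval -0.46 to 0.31, limma-trend p of 0.682, adjusted p of 0.998), and it turned to 0.06 without the library labelled Tgfbr2cko 56. The log2 value of *Pkd1* minus that of *Pkd2* was 1.25, 0.95 and 1.36 in libraries 49, 50 and 52 and highest in library 51, for a control mean of 1.26 ± 0.23 (SD, n = 4). In libraries 53 to 56 it was 0.81, 0.96, 1.20 and 1.34. The genotypes overlapped, and the shift of -0.19 had an exact permutation p of 0.257, which was also 0.257 after adjustment over the 2 ratios.

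**Figure D3:**
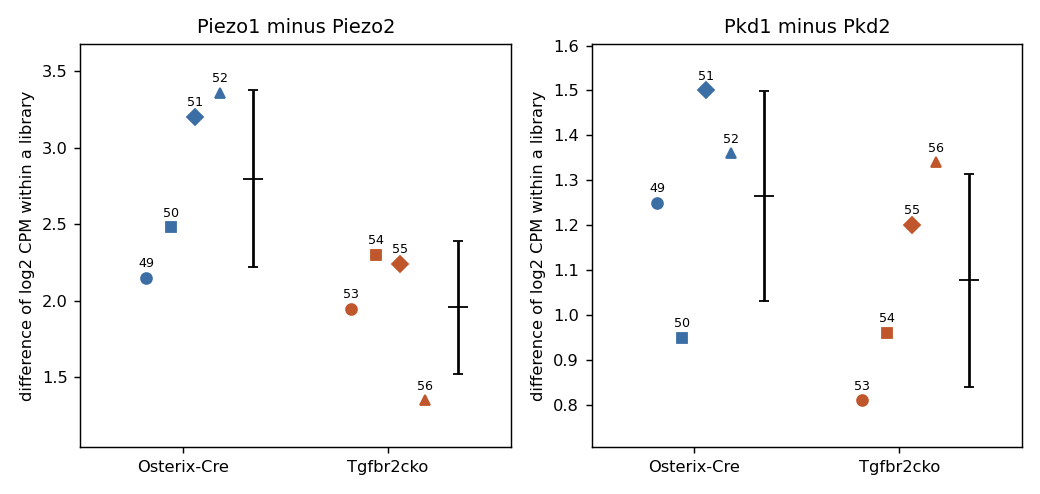
Difference of log2 CPM between 2 family members within each library, at left Piezo1 minus Piezo2 and at right Pkd1 minus Pkd2, blue for Osterix-Cre and orange for Tgfbr2cko, with the mean and SD (n = 4) beside each group; the axes do not start at 0. The Piezo difference averaged 2.80 for Osterix-Cre and 1.96 for Tgfbr2cko, with library 49 within the mutant range, and the Pkd values overlapped widely.

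**Figure D4:**
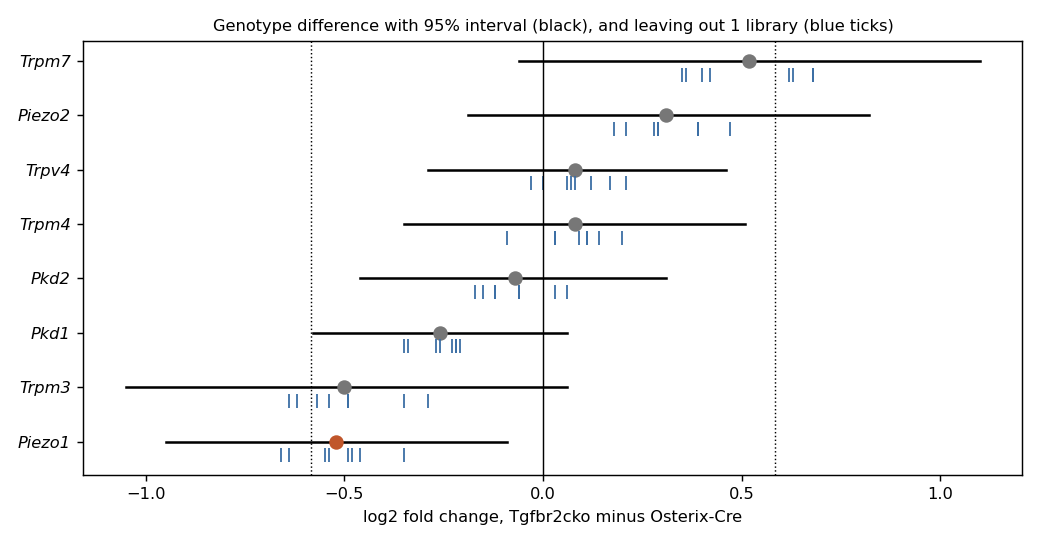
Log2 fold change of each channel gene (dot, orange at an unadjusted limma-trend p under 0.05 and grey otherwise) with its 95% interval in black, the values from the 8 fits that each left out 1 library as blue ticks, and dotted lines at 1.5-fold. The interval leaves out 0 for Piezo1 alone, and the ticks of Trpm7, Trpm3 and Piezo1 reach past 1.5-fold.

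The 2 genes most like each member in pattern across the libraries were looked for among 10312 genes that averaged 3 or more on the log2 scale, by Pearson's r over the 8 libraries, which is given as a description. *Piezo1* followed *Mical1*, the gene of an actin-oxidizing enzyme, and *Il6st*, the shared receptor subunit of the interleukin-6 family, both at an r of 0.98. *Trpm7* followed *Tdrp* and *Usp35* at 0.98. For *Trpm3* the nearest genes were *Zfhx3*, a transcription factor gene, at 0.99 and *Bloc1s1* at 0.98. *Trpv4* followed *Pomk* and *Atat1*, the gene of the enzyme that acetylates tubulin, at 0.98 each, and *Trpm4* followed *Htra1* at 0.98 and *Lama5*, a basement membrane laminin gene, at 0.97. The nearest to *Piezo2* were *Nog*, the bone morphogenetic protein antagonist noggin, and the Wnt regulator *Znrf3* at 0.97. *Pkd1* followed *AW011738* at 0.97 and the endothelial phosphatase gene *Ptprb* at 0.95, and *Pkd2* followed *Oxr1* at 0.98 and *Isoc1* at 0.97. With 8 libraries and so many genes searched, values near 1 were found for every member, and all genes share the libraries' totals.

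Of a list of 26 further TRP and polycystin genes, 4 had a row: *Mcoln1*, *Trpc4*, *Trpm2* and *Trpv2*. None had a p under 0.05, and their median log2 fold change was -0.10. *Mcoln1*, which encodes the lysosomal channel mucolipin-1, had the most reads of these, with a mean of 6.72 ± 0.19 in Osterix-Cre and 6.54 ± 0.23 in *Tgfbr2cko* (SD, n = 4 each), and *Trpv2* came next with a change of -0.02. *Trpm2*, at 8 to 32 reads per library, changed by -0.55 on the log2 scale with a 95% interval from -1.45 to 0.35, and no difference was detectable at this depth.

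Among other genes reported as mechanosensitive channels or their candidates, 8 of 21 listed had a row and 1 of these passed a p under 0.05, near the 8.38% of all genes. *Tmem63b*, which encodes a stretch-gated cation channel, rose from 5.80 ± 0.19 to 6.19 ± 0.17 (SD, n = 4 each) with no overlap between the genotypes. Its log2 fold change was 0.40 (standard error 0.15), under 1.5-fold, with a limma-trend p of 0.022, an adjusted p of 0.403 and an exact permutation p of 0.0286, the smallest that 70 arrangements allow. *Kcnk2*, the gene of the stretch-activated potassium channel TREK-1, had the most reads of this list, with means of 6.59 ± 0.29 and 6.18 ± 0.50 (SD, n = 4 each) and a limma-trend p of 0.098, and *Tmc6*, next in reads, changed by -0.07.

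Partners and regulators of the channels, 32 measured, had 2 genes with a p under 0.05, both lower, which is near the 8.38% over all genes. *Cav1*, the gene of caveolin-1, which binds TRPC1 and shapes membrane pits, fell by 0.80 on the log2 scale (standard error 0.20, limma-trend p of 0.00136, adjusted p of 0.0885) with no overlap, and caveolin-1 is abundant in endothelium. *Homer2*, a scaffold gene, had a change of -0.58 (standard error 0.21, p of 0.015). The 2 with the most reads, *Gna11* and *Mtmr2*, changed by -0.04 and -0.06.

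Store-operated calcium entry and calcium transport genes, 13 measured, had 2 higher and 1 lower at a p under 0.05, where 3.3% of all genes were higher and 5.08% lower. *Slc8a3*, which encodes the sodium-calcium exchanger NCX3, had the largest change of the list, from a mean of 4.77 ± 0.73 to one of 6.12 ± 0.56 (SD, n = 4 each) with no overlap. It rose by 1.35 on the log2 scale (standard error 0.34, limma-trend p of 0.00151, adjusted p of 0.0959). *Atp2b4*, a plasma membrane calcium pump, rose by 0.40 on the log2 scale, and *Slc8b1*, the mitochondrial sodium-calcium exchanger, fell by 0.54 on the log2 scale. Without the library labelled Tgfbr2cko 56 the list had 3 higher and 0 lower at the same p. In that fit 9.58% of all genes passed in either direction, and the share by direction was not counted. The calcium pump gene *Atp2b1*, with the most reads here, had means of 8.90 ± 0.46 and 9.20 ± 0.41 (SD, n = 4 each) and a limma-trend p of 0.246, and *Saraf* changed by 0.21 with a p of 0.141.

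Of 22 genes for polycystin maturation and the cilium, 1 had a p under 0.05, where 8.38% of all genes did. This gene, *Cys1*, which encodes the cilium protein cystin, was lower by a log2 fold change of -0.71 (standard error 0.21, limma-trend p of 0.00496, adjusted p of 0.185) with no overlap. *Ganab*, the glucosidase subunit needed for polycystin-1 to mature, changed by 0.30 with a p of 0.13, and *Sec61b* by -0.09. Of 21 calcium and stretch response genes, 1 was higher and 3 lower at a p under 0.05 (8.38% of all genes in either direction), or 1 and 2 without the library labelled Tgfbr2cko 56. *Rcan2*, an inhibitor of calcineurin, fell from 9.10 ± 0.45 to 8.31 ± 0.52 (SD, n = 4 each), and the ATP receptor gene *P2rx7* and the transcription factor gene *Nfatc4* were lower, with log2 fold changes of -0.68 and -0.32. *Panx1*, the gene of an ATP-releasing channel, was higher, by a log2 fold change of 0.67 (standard error 0.26). The gap junction gene *Gja1*, with the most reads here, had means of 10.62 ± 0.27 and 11.10 ± 0.33 (SD, n = 4 each) and a limma-trend p of 0.0605. None of the genes in these lists had an adjusted p under 0.05, and the medians of the 6 lists lay between -0.10 and 0.06, beside -0.01 over all genes. These lists were chosen with results of these data known.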

How the data were processed

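RNA-Seq of dental pulp from 4 Osterix-Cre and 4 *Tgfbr2cko* libraries was analysed from 1 deposited table. The authors preamplified 1 ng of RNA with a SMART-seq type kit, made Nextera XT libraries, aligned reads with HISAT2, counted them with featureCounts on GENCODE M14, kept genes that the CLEAR workflow finds quantifiable, and applied voom. The submitters' processing notes name fastp 0.21.0, HISAT2 2.1.0, Subread 2.0.1 and GRCm38.p5. The deposited values are log2 CPM with 0.5 added to each count, and all 97184 turned back into whole reads (largest distance 3.61e-08, tolerance 1e-06). Of 12148 identifiers, 12144 matched a symbol, position and exon length in GENCODE M21 on GRCm38. Strandedness of counting is not given in the sources used here.

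Genotypes were compared on the log2 values with limma 3.58.1 (R 4.3.3), using its moderated test, two-sided and with the prior variance following intensity (limma-trend), all 8 libraries in 1 model, no covariate, 95% intervals and Benjamini-Hochberg adjustment over 12148 genes. For single genes and ratios, group labels were permuted over all 70 arrangements (exact permutation test, two-sided), whose smallest p is 0.0286. The fit was tested on simulated data. The 95% intervals rest on the spread between libraries. The counting errors given treat reads as independent, which amplified reads without molecular identifiers are not, so they are lower limits. The members, gene lists and tests were chosen with earlier results of these data known. Named genes are all members, *Tgfbr2*, for each functional list those altered and the 2 with the highest mean (for channel lists also those with a p under 0.05), and the 2 genes nearest to each member by r; the other genes with a p under 0.05, *Trpc4*, *Trpm2* and the overlapping and marker genes were named after their values were seen, and not all genes that the rule takes from the marker lists are named. The alternatives were no trend, library weights, voom weights on the recovered counts, quantile normalization, median centring, only genes averaging 3 or more on the log2 scale, averaged title numbers, an enamel gene covariate, title number as a block and leaving out each library. Promoters came from RefSeq on GRCm38.p6, and 6 members had one. Python 3.11.15 and matplotlib 3.10.9 drew the figures.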

Additional observations from a re-analysis of the deposited data

Results flagged for a closer look

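In 2 of the 20 groups of 4 values examined, 1 library lay far from the other 3, where about 1 in 20 would by chance. *Piezo1* in the library labelled Osterix-Cre 49 was at 5.72, and the other controls were at 6.23, 6.27 and 6.30, so that the gap took 0.871 of the range of the group. *Piezo2* in the library labelled Tgfbr2cko 54 was at 3.40, and the other mutants were at 3.71, 3.72 and 3.74, a gap of 0.912 of the range.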

How the results depend on the processing

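Of the 136 alternative values of single members, 109 kept their direction and their side of a p of 0.05, 6 lost it, all for *Piezo1*, 11 gained it and 10 turned in direction; the cause was not tested. The altered members were 0 as reported, 1 with the enamel gene covariate and 1 with library weights (*Trpm7* in both, at 0.64 and 0.68), 1 at a p under 0.05 of any size (*Piezo1*), and between 0 and 2 when 1 library was left out. Over all genes 701 were altered, between 625 and 947 without 1 library, and 115 had an adjusted p under 0.05. The turns were *Trpm4* at -0.06 with the covariate, -0.04 with library weights and from -0.09 to 0.20 without 1 library (below 0 without library 56), *Trpv4* from -0.03 to 0.21 without 1 library (at or below 0 without library 52 or 53, the latter at -0.00), and *Pkd2* at 0.05 with the covariate and from -0.17 to 0.06 without 1 library (above 0 without library 50 or 56). With the covariate *Piezo1* was at -0.37 (limma p of 0.0595). The Piezo ratio ran from -1.05 to -0.63 and the Pkd ratio from -0.29 to -0.10 without 1 library. By level, 5 of 8 members kept their place with the longest transcript and 4 in the mutants. Leaving out the library labelled Tgfbr2cko 56 was, for the lists, an alternative chosen after the data were seen. In that fit 9.58% of all genes had a p under 0.05 in either direction. The endothelial and mural markers had 3 genes each lower at that p and the macrophage markers 2. Of the mural means 3 were higher and 4 lower (1 and 6 with that library). Without a library the smaller group has 3 samples, assumed to vary like the other group. A fit with title number as a replicate block, also chosen after the data were seen, rests on the 1 number that both genotypes share, with 1 control and 2 mutants. It gave 313 altered genes and 0 altered members, with *Piezo1* at -0.39 (limma p of 0.279), *Trpm4* at -0.19 and *Pkd2* at 0.11. With 4 libraries of each genotype, the 95% interval of *Trpm7*, -0.06 to 1.10, was the widest of a member.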
